A study of Mus musculus with 18 samples.

Results

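Fractalkine signalling was examined through its ligand and its receptor, the genes Cx3cl1 and Cx3cr1, in RNA from the medial prefrontal cortex of mice. The members were taken as the rows whose Ensembl identifier, without its version, maps to either gene, and both were present among the 54547 identifiers of each count table. Libraries came from 9 C57BL6/J mice given chow with PLX5622 at 1200 mg/kg and 9 given a control diet. PLX5622 inhibits the receptor CSF1R, whose signal keeps microglia, the resident macrophages of the brain, alive. The labels of both diets carry the same treatment text, which gives 21 days of PLX5622 followed by 44 days of every-other-day drinking of 15% ethanol, with tissue taken at postnatal day 100, 24 hours after ethanol was last offered. That text names PLX5622 for control animals too, so the chow label and the title were used for the diet. The names of all 18 tables also carry 1 abbreviation, shared by both diets, that the labels do not explain, so a further treatment common to all animals cannot be told from them, and no group without ethanol was analysed here. The sources used here do not give sex, cages or litters.

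Fractalkine is made mainly by neurons in the brain, as a membrane protein whose chemokine domain sits on a mucin-like stalk. Proteases can cut the stalk and release a soluble chemokine. Its receptor CX3CR1 couples to inhibitory G proteins and is carried in the brain by microglia and by macrophages at the borders of the brain, and in blood by monocytes and some lymphocytes. The pair is known as a signal by which neurons restrain and position microglia, and mice that lack Cx3cr1 have been used to study microglial contact with synapses.

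In the GENCODE M21 annotation of GRCm38, Cx3cr1 (ENSMUSG00000052336.7) lies on the minus strand of chromosome 9 from 119901616 to 120069879, and Cx3cl1 (ENSMUSG00000031778.13) on the plus strand of chromosome 8 from 94772009 to 94782427. The length of the Cx3cr1 model comes from 1 of its 3 transcripts, which starts at 120068283 and ends at 119901616, while the other two end at 120048683. The long transcript spans 3 other genes on its strand, Gorasp1, Csrnp1 and Xirp1, and each of them had 0 counts in all 18 libraries. They lie wholly inside the Cx3cr1 model, so these 0 counts are uncertain. On the other strand 6 genes overlap Cx3cr1, among them Wdr48 with 1190 counts over the 18 libraries. The other two Cx3cr1 transcripts overlap no gene on their strand, and no gene model overlaps Cx3cl1. The tables hold 1 count per gene, without the exon or UTR each read came from, and the feature and strand that were counted are not stated in the sources used here.

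Libraries held 990136 to 1742680 counts in genes, with a median of 1384979, and a two-sided exact permutation test of total counts between the diets gave p = 0.58. Neuronal markers fitted the labelled tissue, with 21 of 22 genes on that list passing the count filter and Tubb3 at 0 in every library. The whole span of Tubb3 is shared with another gene model on its strand, Gm20388, so its 0 is uncertain. Of 11051 genes tested with edgeR's quasi-likelihood test, 39 were called lower and 5 higher with PLX5622 at a Benjamini-Hochberg adjusted p under 0.05. The called genes are 0.353% (lower) and 0.0452% (higher) of those tested. DESeq2 called 65 lower, 0.397% of its 16365, and 7 higher.

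The receptor gene Cx3cr1 fell in the PLX5622 libraries to 23.9% of its control level, with a 95% interval of 20.2% to 28.2%. Its lowest, median and highest values were 8.44, 12.4 and 15.3 CPM (counts scaled to library size with TMM factors) with PLX5622, against 39.96, 50.2 and 62.1 CPM with the control diet. The highest of the 9 PLX5622 libraries lay under the lowest control library, and 0.199% of the tested genes showed that pattern. The means were 11.96 ± 2.46 CPM with PLX5622 and 50.7 ± 5.92 CPM with the control diet (SD, n = 9 each). The log2 fold change was -2.06 ± 0.12 (SE), with a 95% interval of -2.30 to -1.82 (edgeR adjusted p = 1.4e-23). Among all genes tested Cx3cr1 had the smallest p, and 4 genes had a lower log2 fold change. The exact permutation test of the difference in mean CPM gave p = 4.1e-05, the smallest that the 48620 group assignments allow (two-sided, adjusted 0.00016 over 4 tests). In bulk tissue, fewer cells of a type and less of the RNA in each cell cannot be told apart.

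The depth behind the receptor differed strongly between the diets. Cx3cr1 had 11 to 24 counts per library and 151 in all with PLX5622, against 54 to 81 counts per library and 610 in all with the control diet. The coefficient of variation of its CPM between animals was 20.6% with PLX5622 and 11.7% with the control diet. Counting error alone at these counts gives 25.4% with PLX5622 and 12.3% with the control diet. The spread of Cx3cr1 between animals of a diet was thus no larger than counting error, and differences between animals within a diet were not detectable at this depth. With PLX5622 the highest and lowest animals differed 1.81-fold and with the control diet 1.55-fold.

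The ligand gene Cx3cl1 was not called in either direction. Its lowest, median and highest values were 255, 277 and 328 CPM with PLX5622, against 238, 256 and 303 CPM with the control diet, and the groups overlapped over most of their range. The means were 278 ± 21.1 CPM with PLX5622 and 262 ± 19.95 CPM with the control diet (SD, n = 9 each), and 7 of the 9 PLX5622 libraries lay above the control mean. The log2 fold change was 0.08 ± 0.05 (SE), with a 95% interval of -0.01 to 0.18 (edgeR adjusted p = 0.809, DESeq2 adjusted p = 1). On the linear scale the interval runs from 99.0% to 114% of the control level. The exact permutation test of the difference in mean CPM gave p = 0.12 (two-sided, adjusted 0.12 over 4 tests). Without control 4, which had the highest control value, that p was 0.017, with a difference of 21.1 CPM in place of 15.9 CPM. Without PLX5622 35, which had the highest value of all, the difference was 9.7 CPM (exact permutation p = 0.24), while the edgeR adjusted p lay between 0.671 and 0.971 when any 1 library was left out.

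Cx3cl1 was read at far greater depth than the receptor. It had 270 to 481 counts per library with PLX5622, with 3474 in all, and 281 to 444 with the control diet, with 3153 in all. Its coefficient of variation was 7.58% with PLX5622 and 7.62% with the control diet, and counting error alone gives 5.16% with PLX5622 and 5.38% with the control diet. The SE of its fold change, 0.05 on the log2 scale, equals the median SE of the 325 genes whose mean log2 CPM was within 0.25 of its own. Of all genes tested, 57.5% had an absolute log2 fold change no larger than that of Cx3cl1.

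**Figure D1:**
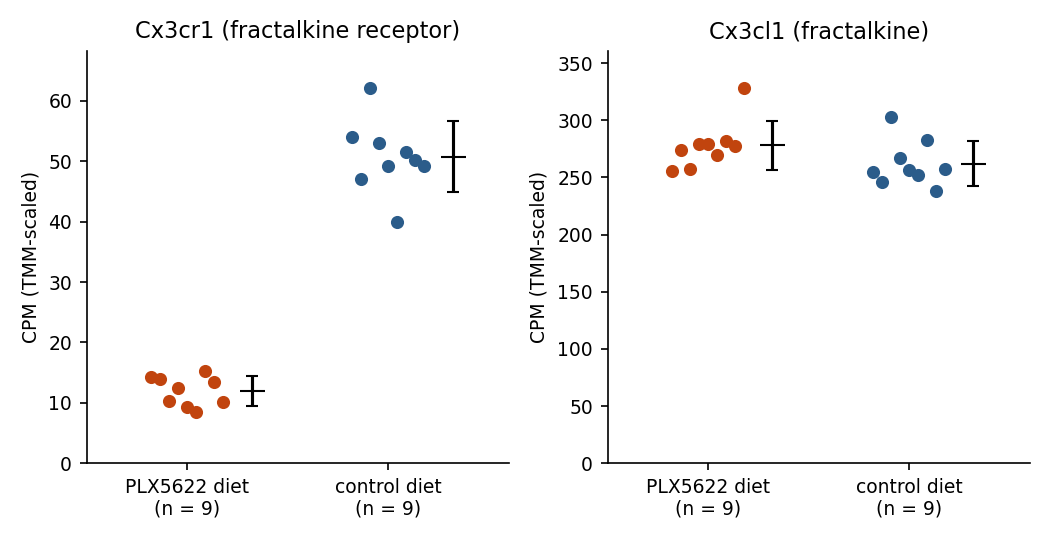
TMM-scaled CPM of Cx3cr1 and Cx3cl1 (vertical axes, from 0) in each library, with the PLX5622 diet left of the control diet; points are animals in order of their number, and bars give the mean ± SD of 9 libraries. Every PLX5622 library lay at or below 15.3 CPM for Cx3cr1 and every control library at or above 39.96 CPM, while for Cx3cl1 the diets overlapped, with PLX5622 35 alone at 328 CPM.

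The ratio of ligand to receptor RNA was higher with PLX5622. The log2 CPM of Cx3cl1 minus that of Cx3cr1 ran from 4.04 to 4.82 with PLX5622 and from 2.21 to 2.61 with the control diet, with means of 4.40 ± 0.31 with PLX5622 and 2.34 ± 0.12 with the control diet (SD, n = 9 each). The ranges did not overlap, and the mean difference of 2.06 is a 4.16-fold change in the ratio of ligand to receptor RNA. This mostly restates the fall of Cx3cr1, whose mean log2 CPM was 3.72 with PLX5622 and 5.70 with the control diet. Cx3cl1 was at 8.12 with PLX5622 and 8.04 with the control diet. No test is given for this combined value. Its size within a diet is not read as which gene is more abundant, since how counts relate to transcript number for each gene was not examined.

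Cx3cr1 was set beside a list of 36 genes of homeostatic microglia that does not hold it. Of the 20 genes on that list that could be tested, 19 fell and all 20 had negative values, where edgeR called 0.353% of all genes tested lower. Their median log2 fold change was -1.55, against a median of 0.00 over all genes tested. The count filter can be met by the 9 libraries of 1 diet. Fcrls, with at most 2.78 CPM with PLX5622 and at least 10.8 CPM with the control diet, met it through the control libraries. Olfml3, with at most 6.75 CPM with PLX5622 and at least 7.72 CPM with the control diet, did so too. Others, among them the genes named below as nearest to Cx3cr1, also needed control libraries to pass it. Entry to the 20 thus depended in part on the control level, so their count, median and order are not independent evidence of a fall. DESeq2 called 28 of the 36 genes lower, among them 18 of these 19, and not Sall1, a transcription factor of microglia, at -0.91 (adjusted p = 0.0611). Of all its genes DESeq2 called 0.397% lower. On the same list Trem2, Itgam, Adora3 and Irf8 had 0 counts in all libraries, and other gene models on the same strand cover 99.9% of the spans of Itgam and Adora3 and all of that of Irf8. Many of these genes already stood out in earlier results of the same libraries, so the list is not independent evidence of a direction. Fcrls, a microglial Fc receptor-like gene, had the lowest value at -3.43. P2ry12, an ADP receptor by which microglial processes sense injury, Tmem119, a microglial surface marker, and Selplg, the ligand of P-selectin, were at -2.17, -2.14 and -2.08. Next above Cx3cr1 stood Siglech, a sialic acid-binding lectin, at -1.87, C1qa, a subunit of complement C1q, at -1.81, and Laptm5, a lysosomal membrane protein, at -1.77. Csf1r, the target of PLX5622, was at -1.77 ± 0.13 (log2, SE), which leaves 29.4% of its control level. The 95% intervals of 11 of the 20 genes overlapped that of Cx3cr1, 1 lay wholly below it, and 8 lay wholly above it, and the genes next to Cx3cr1 in this order, Selplg and Siglech, were among the 11. The differences between these genes were not tested. Lpcat2, an enzyme of phospholipid remodelling, was the tested gene on the list that was not called, at -0.53 (edgeR adjusted p = 0.164).

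**Figure D2:**
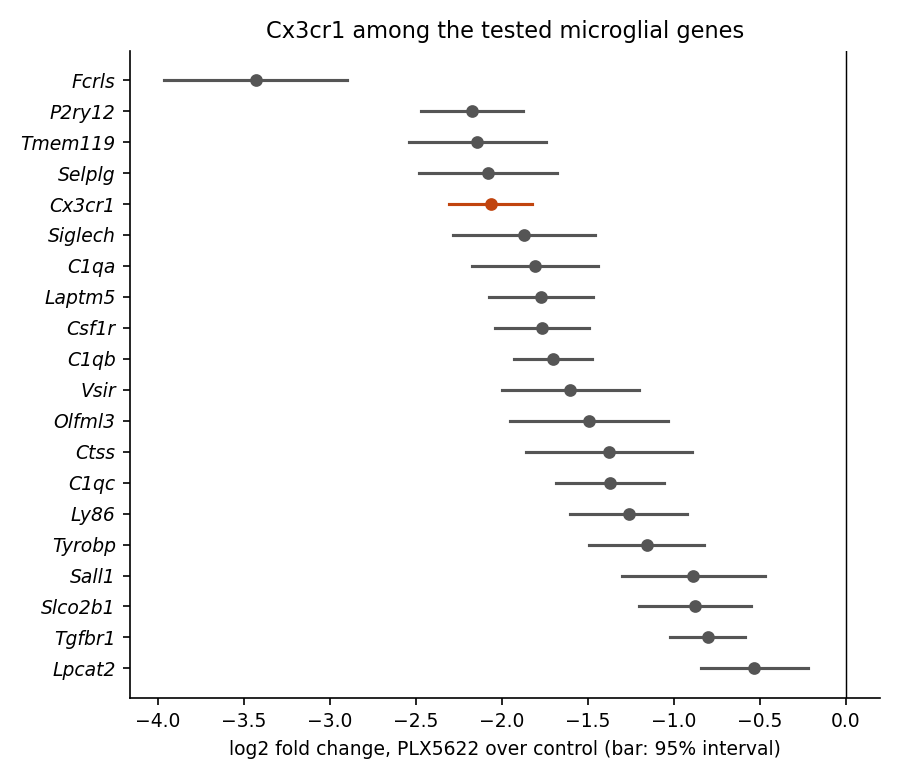
Log2 fold change, PLX5622 over control (horizontal axis), of Cx3cr1 (coloured) and 19 of the 20 tested genes of the microglial list (grey), ordered from the most negative; bars are 95% intervals from edgeR with 9 libraries per diet. Cx3cr1 at -2.06 stands between Selplg at -2.08 and Siglech at -1.87.

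Relative to the other microglial genes, Cx3cr1 RNA was lower with PLX5622. Its log2 CPM minus the mean log2 CPM of the 20 tested genes ran from -0.17 to 0.64 with PLX5622, with a median of 0.34, and from 0.48 to 1.16 with the control diet, with a median of 0.90. All 9 PLX5622 values lay below the control mean, though the ranges overlapped. The means were 0.27 ± 0.30 with PLX5622 and 0.83 ± 0.22 with the control diet (SD, n = 9 each), a difference of -0.56 (exact permutation test, two-sided p = 0.00049, adjusted 0.00099 over 4 tests). The list holds genes that other brain cells also use, such as Tgfbr1 at -0.80, and their part in this difference was not tested beyond leaving out each gene. Many of the 20 genes, Fcrls among them, needed control libraries to pass the count filter, so this test is not independent of the control level. The lowest values with PLX5622 were 4.22 CPM for P2ry12, 1.28 CPM for Tmem119 and 1.56 CPM for Selplg. They were 0.64 CPM for Siglech, 5.13 CPM for C1qa and 5.46 CPM for Laptm5. With any 1 of the 20 genes left out, an alternative chosen after seeing the data, with a list median or sum in place of its mean, or with another prior count, the difference stayed between -0.71 and -0.50.

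Relative to 21 tested neuronal genes, Cx3cl1 was at -0.67 ± 0.10 with PLX5622 and -0.75 ± 0.10 with the control diet (log2, SD, n = 9 each), a difference of 0.08 (two-sided exact permutation p = 0.11, adjusted 0.12 over 4 tests). None of these neuronal genes was called by edgeR or DESeq2, 2 had an unadjusted p under 0.05, and their median log2 fold change was 0.01. Without control 4 the difference was 0.11 (exact permutation p = 0.01), without PLX5622 25 it was 0.10 (exact permutation p = 0.047), and without PLX5622 35 it was 0.05 (exact permutation p = 0.21). Endothelial cells can also make fractalkine, and none of 10 endothelial markers was called, with a median of -0.07, 1 of them at an unadjusted p under 0.05 and 0 called by DESeq2.

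**Figure D3:**
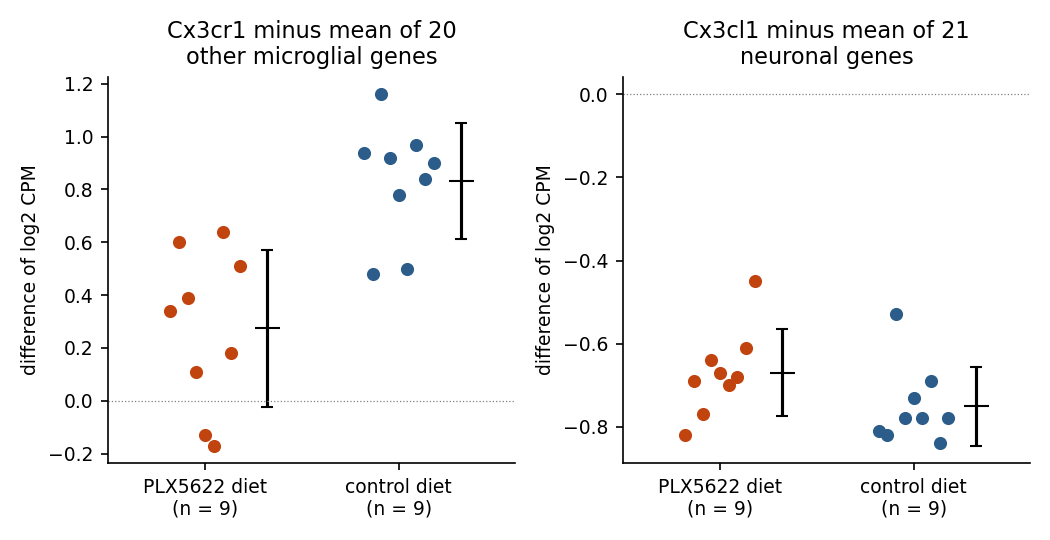
Difference of log2 CPM (vertical axes) between Cx3cr1 and the mean of 20 other microglial genes, and between Cx3cl1 and the mean of 21 neuronal genes, per library, with the PLX5622 diet left of the control diet; bars are the mean ± SD of 9 libraries. The receptor values centre on 0.27 with PLX5622 and 0.83 with the control diet, and the ligand values on -0.67 with PLX5622 and -0.75 with the control diet.

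Markers of other cells, not all of which carry Cx3cr1, were also followed. Markers of border macrophages, which also express the receptor, summed to 2.73 to 11.4 CPM with PLX5622 and 22.8 to 36.3 CPM with the control diet, from 86 counts with PLX5622 and 342 with the control diet. None of these 10 genes was at 0 in all libraries and none reached the edgeR filter, and DESeq2 called Mrc1, the mannose receptor, at -3.27, F13a1, a coagulation factor subunit, at -2.39 and Stab1, a scavenger receptor, at -1.85 (highest adjusted p = 5.7e-05). Of all its genes DESeq2 called 0.397% lower. Markers of blood myeloid cells, a list of 10 genes of which none was tested, summed to 4.77 to 32.7 CPM with PLX5622 and 2.91 to 198 CPM with the control diet. S100a8 and S100a9 held 90 and 91 of their 217 counts with PLX5622, and 131 and 152 of 362 with the control diet. Ccr2 had 6 counts with PLX5622 and 9 with the control diet, and Ly6c2 had 2 and 1. The sum thus rests mostly on S100a8 and S100a9 and does not measure blood cells with Cx3cr1. Control 3 alone held 198 CPM, the other control libraries reached at most 20.4 CPM, and Cx3cr1 in control 3 was 47.1 CPM, below the control median. Without control 3 the log2 fold change of Cx3cr1 was -2.08, against -2.06 with all libraries (edgeR). Lymphocyte and NK cell markers summed to 27.9 to 44.7 CPM with PLX5622 and 31.5 to 45.2 CPM with the control diet. Trbc2 alone held 446 of their 466 counts with PLX5622 and 442 of 467 with the control diet. The other markers on that list were near 0, so the sum does not show whether lymphocytes were present or changed. Klrb1c was at 0 in all libraries, where 83.2% of its span is shared with another gene model on its strand. The part of border macrophages and blood cells in the fall of Cx3cr1 was not tested.

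Proteases that release fractalkine from its stalk, their partners and their inhibitors were held on a list of 13. Of these, 9 could be tested and 1, Ctss, fell, where edgeR called 0.353% of all genes tested lower. The median log2 fold change of the 9 was -0.06, which is no measure of release, since the list mixes proteases with an inhibitor. Ctss encodes cathepsin S, a protease that microglia secrete and that cleaves fractalkine in rodent spinal cord. It had 14.1, 25.0 and 44.3 CPM as lowest, median and highest values with PLX5622, against 48.7, 62.5 and 118 CPM with the control diet. The diets did not overlap, a pattern of 0.199% of the genes tested. Its log2 fold change was -1.38 ± 0.23 (SE, edgeR adjusted p = 0.00628), and it also stands on the microglial list. The membrane sheddases were not called. Adam10, which cuts fractalkine constitutively, had 111 ± 11.6 CPM with PLX5622 and 118 ± 7.31 CPM with the control diet (SD, n = 9 each), a log2 fold change of -0.08 with a 95% interval of -0.21 to 0.05 (edgeR adjusted p = 0.889). Adam17, which cuts it on stimulation, had 15.6 ± 2.75 CPM with PLX5622 and 17.1 ± 3.50 CPM with the control diet (SD, n = 9 each), a log2 fold change of -0.15 with a wider interval of -0.45 to 0.15 (edgeR adjusted p = 0.925). Tspan33, one of the tetraspanins that guide ADAM10, had a log2 fold change of 0.22 ± 0.13 (SE, edgeR adjusted p = 0.815). The tetraspanins Tspan5, Tspan14, Tspan15 and Tspan17 lay between -0.07 and 0.05, and Timp3, an inhibitor of ADAM17, was at 0.10. The iRhom gene Rhbdf2, needed for ADAM17 in myeloid cells, had 11 counts with PLX5622 and 14 with the control diet, too few to be tested.

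Integrin and receptor signalling genes were held on a list of 20, of which 14 could be tested and none was called by edgeR or DESeq2, with 0 at an unadjusted p under 0.05. Their median log2 fold change was -0.01 and their values ran from -0.25 to 0.06. Nfe2l2, which encodes the antioxidant regulator NRF2, stood at -0.25 ± 0.13 (SE, edgeR adjusted p = 0.766). Gnai2, an inhibitory G protein subunit, was at -0.09 ± 0.06 (adjusted p = 0.854), and Itga4, an integrin chain, at -0.17 ± 0.15 (adjusted p = 0.91). These genes are used by many brain cells, and no tested gene on the list is a microglial marker of the list above. Pik3cg, the PI3K gamma catalytic subunit of leukocytes, was below the filter, with 11 counts with PLX5622 and 37 with the control diet and 8 of 9 PLX5622 libraries below every control library (DESeq2 log2 fold change -1.80, adjusted p = 0.174). The cytokine genes that CX3CR1 signalling is known to restrain in microglia were close to undetected. Il1b had 8 counts with PLX5622 and 2 with the control diet, and Tnf and Il6 had 0 with PLX5622. A change in them was not detectable at this depth.

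Among 27 other chemokines 25 were in the tables, 4 were tested and none was called by edgeR or DESeq2, with 1 at an unadjusted p under 0.05. Cxcl14, a chemokine of some interneurons, was at 0.20 ± 0.09 (log2, SE, edgeR adjusted p = 0.592), Cxcl12, the ligand of Cxcr4, at 0.14 ± 0.09 (adjusted p = 0.828) and Ccl25 at -0.11 ± 0.12 (adjusted p = 0.943). Among 22 other chemokine receptors 2 were tested and none was called by edgeR, with 1 at an unadjusted p under 0.05. Ackr1, an atypical receptor that binds chemokines without G protein signalling, was at 0.23 ± 0.08 (adjusted p = 0.349), and 26.4% of its span is shared with Cadm3 on the same strand, so its count is uncertain. Ackr3, an atypical receptor for Cxcl12, was at 0.18 ± 0.19 (adjusted p = 0.94).

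Other signals that act on microglia made up a list of 17 genes, of which 13 were tested, 2 fell and 0 rose. Over all 11051 genes tested 39 were called lower. The median log2 fold change of the 13 was 0.00, and 4 of them had an unadjusted p under 0.05 (edgeR). The 2 lower genes were receptors, Csf1r, given above, and Tgfbr1, the type I receptor of TGF-beta, at -0.80 ± 0.11 (SE, edgeR adjusted p = 1.9e-07), and both also stand on the microglial list. Mertk, a receptor for apoptotic cells that astrocytes also express, was at -0.19 ± 0.08 (adjusted p = 0.604). Tgfbr2 was at -0.28 ± 0.13 (SE, edgeR adjusted p = 0.684). The tested ligands Cd200, Cd47, Il34, Csf1 and Tgfb2 lay between -0.01 and 0.03, and Sirpa, the receptor for CD47 that neurons express as well, was at 0.01. Gas6 and Pros1, ligands of Mertk and Axl, were at 0.19 and -0.32, neither called. Cd200r1, the receptor for CD200 on myeloid cells, had 11 counts with PLX5622 and 9 with the control diet and was not tested.

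**Figure D4:**
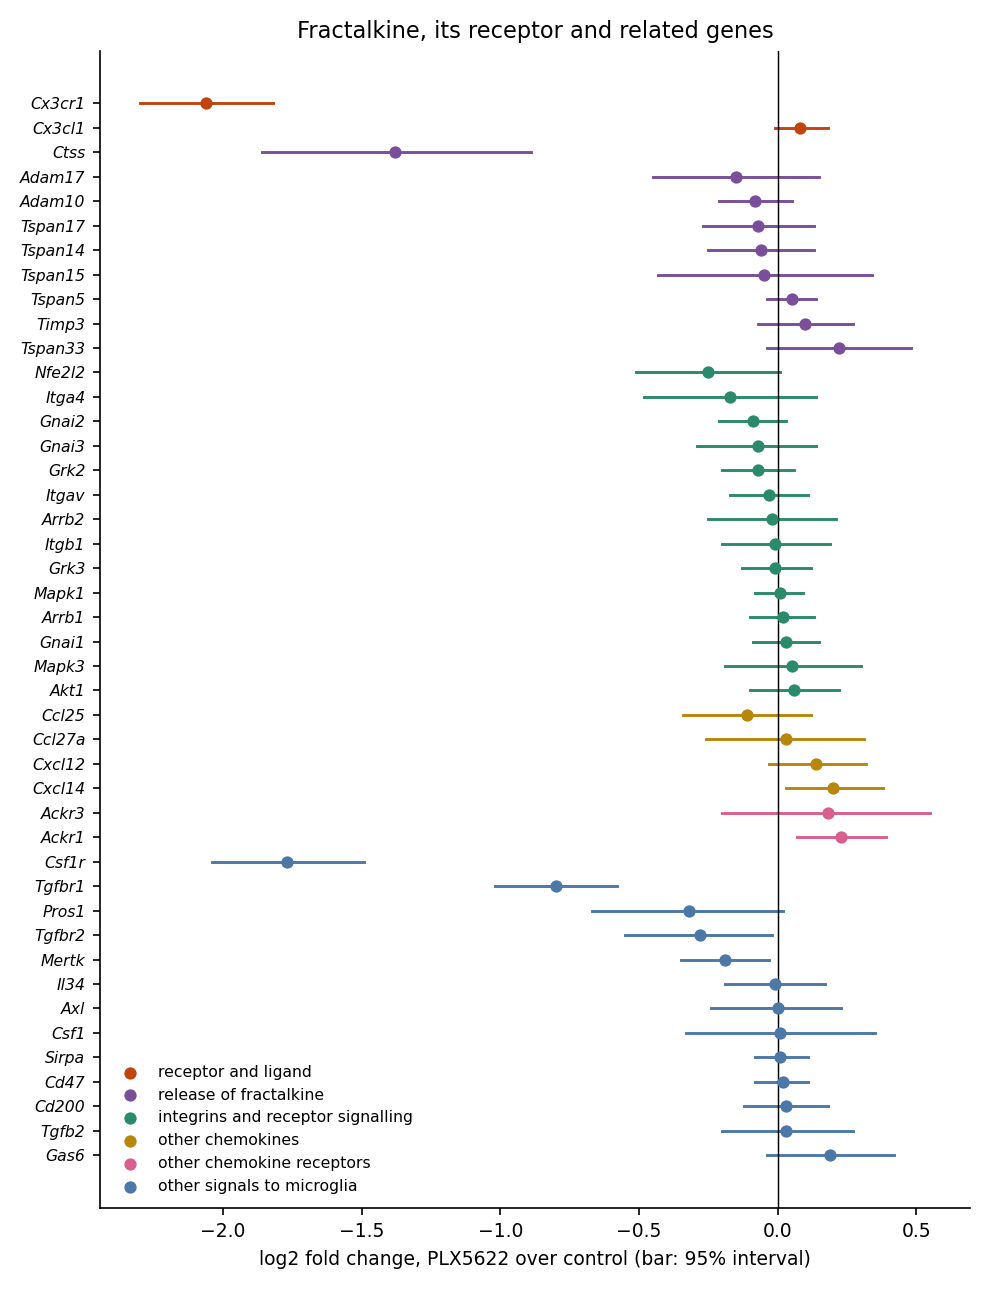
Log2 fold change, PLX5622 over control (horizontal axis), for Cx3cr1, Cx3cl1 and the tested genes of 5 lists, coloured by list; bars are 95% intervals from edgeR with 9 libraries per diet. Cx3cr1, Ctss, Csf1r and Tgfbr1 lie wholly below 0 and passed the adjusted test, while the interval of Cx3cl1 runs from -0.01 to 0.18.

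Ligand and receptor were related within each diet, since the diets form separate clusters in Cx3cr1. With PLX5622 Pearson's r between their log2 CPM was -0.15 (exact permutation p = 0.752, adjusted 0.855 in a family of 16 relations). Spearman's rho was -0.08 (exact permutation p = 0.843, adjusted 0.982). Without the 2 libraries farthest from the median of Cx3cr1, r was -0.35, and without PLX5622 35 it was 0.13. With the control diet r was 0.66 (exact permutation p = 0.0611, adjusted 0.489) and rho 0.60 (exact permutation p = 0.0968, adjusted 0.482), and r was 0.44 without the 2 farthest libraries. Control 4 had the highest value of both genes, and without it r was 0.33 (exact permutation p = 0.39). Without control 8 r was 0.79 (exact permutation p = 0.021) and without control 10 it was 0.74 (exact permutation p = 0.039), both unadjusted. No relation passed after adjustment, and whether r differs with the diet was not tested.

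**Figure D5:**
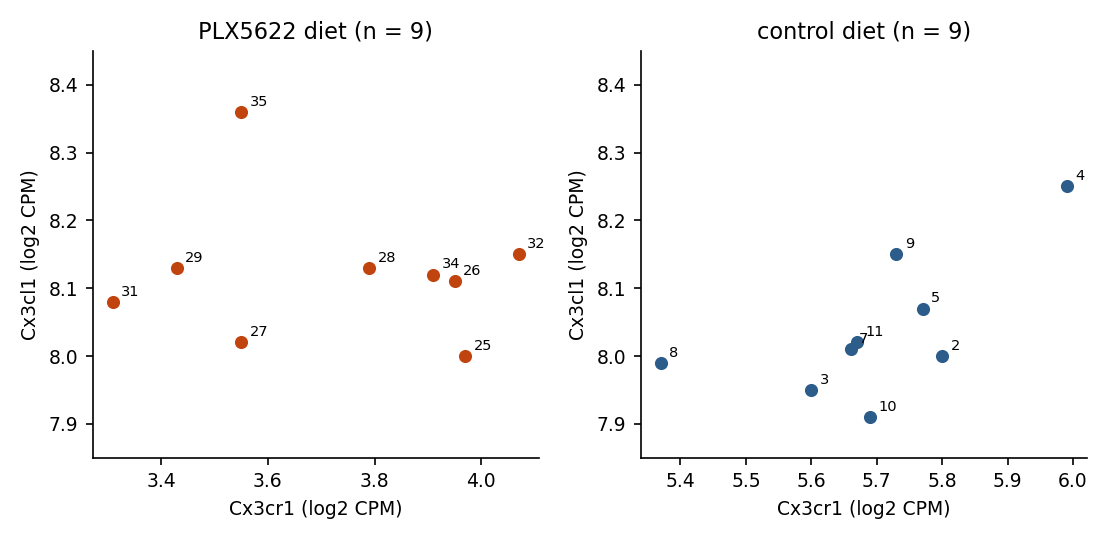
Log2 CPM of Cx3cl1 (vertical axis) against Cx3cr1 (horizontal axis, on a different range in each panel) for the 9 PLX5622 and the 9 control libraries, with the animal number beside each point. Pearson's r was -0.15 with PLX5622 and 0.66 with the control diet; control 4 lies alone at the upper right and PLX5622 35 at the top.

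The other 14 relations of the family gave no adjusted p under 0.05. Cx3cr1 and the mean of the 20 other microglial genes had an r of 0.32 with PLX5622 (exact permutation p = 0.398, adjusted 0.808) and -0.27 with the control diet (exact permutation p = 0.367, adjusted 0.808), with rho at 0.17 with PLX5622 and -0.57 with the control diet. Cx3cr1 and Csf1r had an r of 0.27 with PLX5622 (exact permutation p = 0.501, adjusted 0.808) and -0.59 with the control diet (exact permutation p = 0.0925, adjusted 0.49), with rho at 0.08 with PLX5622 and -0.52 with the control diet. Cx3cl1 and the mean of the neuronal genes had an r of 0.21 with PLX5622 (exact permutation p = 0.572, adjusted 0.808) and 0.42 with the control diet (exact permutation p = 0.257, adjusted 0.808), with rho at 0.25 with PLX5622 and 0.58 with the control diet. Total counts gave r from -0.20 to 0.29 over both genes and diets. Cx3cl1 followed the animal number with PLX5622 at an r of 0.73 (exact permutation p = 0.0108, adjusted 0.173), a rho of 0.73 (exact permutation p = 0.0311, adjusted 0.482) and an r of 0.61 without the 2 farthest libraries, and at an r of -0.17 with the control diet (exact permutation p = 0.656, adjusted 0.808). Animal numbers run from 25 to 35 with PLX5622 and from 2 to 11 with the control diet, and the labels do not say what they stand for, so the diets cannot be told apart from whatever the numbers mark. With the position of the number within its diet as a covariate, Cx3cl1 was at 0.08 and Cx3cr1 at -2.06 (log2).

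The genes most like each member were ranked by Pearson's r of log2 CPM over the 18 libraries after the mean of each diet was subtracted, among 10989 other genes averaging 10 counts or more, as a description with no test. For Cx3cr1 these were Eed, a subunit of the Polycomb complex PRC2, at 0.78, Klhl4 at 0.74, Neto2, an auxiliary subunit of kainate receptors, at 0.72, and the translation factor gene Eif4g3 and the kinase gene Hipk1 at 0.70 each. None of the 5 is on the microglial list, whose median r with Cx3cr1 was 0.06, against 0.01 over all genes ranked. For Cx3cl1 they were Btbd2 at 0.81, Tmem33, an endoplasmic reticulum membrane protein, at 0.80, Rnf20, a histone ubiquitin ligase, at 0.79, Selenof, a selenoprotein of the endoplasmic reticulum, at 0.74, and Phb2, a mitochondrial prohibitin, at 0.74. The neuronal list had a median r with Cx3cl1 of 0.04. Within this ranking the members had an r of 0.15 with each other. The spread of Cx3cr1 within a diet was no larger than counting error, so its r values here cannot be told from counting noise. For both members the genes named are the highest of 10989, and such r values are large by selection alone. The libraries share depth and scaling, and none of these 10 genes was called between the diets, with log2 fold changes from -0.14 to 0.16.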

How the data were processed

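The authors deposited 1 table per library of whole-number counts per Ensembl gene, from 3'-biased single-end libraries of total RNA, per the labels' protocols. The submitters' processing notes list HTSeq 0.11.0 and Bowtie2 2.3.4.3, with R 3.5.1, FastQC 0.11.8 and DESeq2 1.10.1, and give GRCm38.p6 and mm10 as builds. The role of each tool, the annotation release, strand and duplicate handling were not given in the sources used here. Identifiers were matched to GENCODE M21 without their version, and the 841 unmatched hold 0.028% of counts. No 2 libraries of a diet matched within sampling noise (chi-square divided by its degrees of freedom was at least 1.129).

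Counts were tested with edgeR 4.0.16 in R 4.3.3, after filterByExpr (minimum count 10, minimum total 15) and TMM scaling. The quasi-likelihood fit was robust, and Benjamini-Hochberg adjustment ran over all 11051 genes. Intervals of fold changes rest on the fitted SE. Log2 CPM carry a prior count of 2. Permutation tests and correlations used all 48620 assignments and 362880 orders, and counting error is that of reads, not of molecules. DESeq2 1.42.0, limma 3.58.1 and sva 3.50.0 gave alternatives, beside other scalings, filters and thresholds, thinning, a covariate and left-out libraries.

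Groups come from the titles. The labels do not say whether animals were housed or processed together. The p-values compare the diets against the spread between these libraries and take the libraries as independent, which the labels cannot show. The members and lists were chosen with earlier results of these data known. Named genes are the members, called genes and the 3 smallest p of each pathway list, Adam10, Adam17 and Ctss, the 5 genes most like each member, and the 3 microglial genes nearest to Cx3cr1 in fold on either side. Other genes were named after their values were seen. Values of 2 listed genes are not reported here.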

Additional observations from a re-analysis of the deposited data

Results flagged for a closer look

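In 98 groups of 9 libraries checked for a library standing apart from the others of its diet, 10 had one, where chance gives about 1 in 20 groups. Among the members, Cx3cl1 stood apart in PLX5622 35 at 328 CPM, with the other PLX5622 libraries between 255 and 282 CPM, and its value relative to the neuronal genes stood apart in control 4 at -0.53, with the other controls between -0.84 and -0.69 (log2). PLX5622 35 was also alone in Cxcl14 at 81.1 CPM, against at most 65.6 CPM, and in the summed astrocyte markers at 4020 CPM, against at most 3780 CPM. Without PLX5622 35 the log2 fold change of Cx3cl1 was 0.05.

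Control 3 was high in the summed blood myeloid markers at 198 CPM, against at most 20.4 CPM, in the summed microglial markers at 995 CPM, against at most 817 CPM, and in Laptm5 at 44.0 CPM, against at most 33.1 CPM. The other single values were Nfe2l2 at 32.0 CPM in PLX5622 28, Siglech at 0.64 CPM in PLX5622 27, and Hipk1 at 68.3 CPM in PLX5622 31.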

How the results depend on the processing

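Cx3cr1 stayed called lower in 28 alternatives, from -2.12 to -2.02 with 1 library left out and from -2.11 to -2.06 otherwise (log2). With a mean of at least 50 counts it was not among the genes tested. Cx3cl1 stayed uncalled, from 0.05 to 0.11 with 1 library left out and from 0.08 to 0.10 otherwise. Its CPM difference ran from 9.7 to 21.1 and its difference from the neuronal genes from 0.05 to 0.11 (log2) with 1 library left out. The difference of Cx3cr1 from the other microglial genes ran from -0.60 to -0.50 with 1 library left out. The log2 ratio of ligand to receptor moved between the diets by 2.01 to 2.10 with 1 library left out, and by 2.15 with a prior count of 0.5. The r of ligand and receptor ran from -0.29 to 0.13 with PLX5622 and from 0.33 to 0.79 with the control diet with 1 library left out. In controls it was 0.68 on total counts (exact permutation p = 0.048) and 0.87 in 1 random thinning to the smallest library (exact permutation p = 0.0011), in place of 0.66 (exact permutation p = 0.061), and the cause was not tested. No paired analysis was possible because the replicate numbers of the diets do not overlap.

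Genes called lower numbered 65 with DESeq2, 92 with no filter, 8 at a mean of at least 50 counts, and 38 to 50 with 1 library left out. Genes called higher numbered 14 with limma-voom, 20 with no filter, 0 at a mean of at least 50 counts, 17 with the covariate for the animal number, 8 without control 8 and PLX5622 28, 0 at an adjusted p under 0.01, 10 at one under 0.1, and 2 to 13 with 1 library left out, where leaving out control 2, 3, 4 or 8 or PLX5622 25, 34 or 35 moved the count by over 1.5 times. Uncalled genes near 0 changed sign. With 1 library left out Eed ran from -0.02 to 0.11, Eif4g3 from -0.02 to 0.00, Rnf20 from -0.01 to 0.04, Selenof from -0.04 to 0.03 and Phb2 from -0.06 to 0.05. Eed was also at -0.02 without control 8 and PLX5622 28, and Hipk1 at -0.03 after thinning (log2). The low depth of Cx3cr1 with PLX5622 limits every statement on differences between animals of that diet.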
